A study of Mus musculus with 2 samples.

Results

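The 10 genes described here encode lipoxygenases, phospholipases A2 and cyclooxygenases of mouse epidermis: Alox12, Alox12b, Alox12e, Aloxe3, Pla2g2e, Pla2g2f, Pla2g4a, Pla2g4e, Ptgs1 and Ptgs2. They were chosen by gene name, and all 10 were found on the array, among 27975 gene names, with 15 of its 41174 gene probes; 5 of the genes had 2 probes and 5 had 1. RNA came from primary epidermal keratinocytes of K14-caSmad1 mice and of wild-type mice, both FVB/NJ and 20 days old. K14-caSmad1 mice overexpress a constitutively active form of Smad1, a transcription factor of bone morphogenetic protein signalling, and by its name the transgene is driven by the keratin 14 promoter, which is active in basal keratinocytes. Each of the 2 two-colour arrays held K14-caSmad1 RNA in Cy5 and wild-type RNA in Cy3, and since the dyes were never swapped, genotype and dye cannot be told apart.

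Phospholipases A2 cut a fatty acid such as arachidonic acid out of membrane phospholipids. Cyclooxygenases turn that acid into the precursor of all prostaglandins, and lipoxygenases turn it, or linoleic acid, into hydroperoxides. In the epidermis Alox12b and Aloxe3 act one after the other on the linoleate of ceramides, a step needed to bind lipid to the cornified envelope and to keep water in the body.

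The arrays are labelled as biological replicates, but how many animals entered each RNA sample is not given in the sources used here. Over 12287 probes with 1 spot, the SD of the difference between arrays was 0.0946 in log2, against 0.105 predicted from the noise between repeated spots, while over 81 repeated probes it was 0.0534, against 0.0332 predicted. As this comparison points both ways, the arrays were counted as 1 sample. Values are given for both of them, with no error between animals, and a gene was called different where each array by itself showed a difference of 2-fold or more, of the same sign. Of 11736 genes tested, 480 (4.09%) were higher and 1152 (9.82%) lower in K14-caSmad1, 13.9% in all. Ratios were normalised within each array by loess, which removes trends with intensity; with median centring in its place the balance turned to 1110 higher and 810 lower, and the signals as processed by the scanner software gave 1255 higher and 1869 lower. The labelled cell type was checked against keratinocyte markers: all 6 basal markers and all 9 suprabasal markers were above background, with 4 of each at least 2-fold higher in K14-caSmad1 and 3 suprabasal markers below 0 in log2 ratio.

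The sequences that follow identify the probes whose readings differ within a gene or between close relatives. Each line gives the first 30 bases of a 60-base probe, 5′ to 3′, as the scanner files hold it. Exon and untranslated-region annotation under the probes was not analysed here, but on mm9 Alox12b probe 1 spans 235 bases and Pla2g4a probe 2 spans 10485 bases, more than the probes' own length.
Pla2g2e probe: agtgtgacaagagagctgctctttgctttc
Pla2g2f probe: gggctcctgcatgggtatattcctatagag
Pla2g4a probe 1: aatttctgtgctgggatgatcaagccattt
Pla2g4a probe 2: gatgtacttcaacacactgaacaacattga
Alox12 probe 1: atttcaagcagatttggacaatttggagaa
Alox12 probe 2: acactccacattagtattctaactacaggg
Alox12b probe 1: atgtgccaccctctgtataagcttctcatc
Alox12b probe 2: tattgaggcttttcgtcagaacctcaacca

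In K14-caSmad1 keratinocytes Pla2g4a rose, the secreted phospholipase gene Pla2g2e fell to background, and the 4 lipoxygenase genes among the 10 differed by at most 1.31-fold. Of the 10 genes, 9 passed the detection filter, which asks for signal well above background on both arrays in at least 1 of the channels. Among these 9, 1 was called higher (4.09% of all genes) and 2 lower (9.82%). Their median log2 ratio was -0.23, against -0.03 over all genes tested. By limma's adjusted p, which weighs the mean log2 ratio against the gap between the arrays, 7 of the 9 passed, in a background where 87.1% of all genes did. It measures no spread between animals. Alox12e (0.0534) and Aloxe3 (0.0508) did not pass, at mean log2 ratios of 0.07 and 0.08.

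**Figure D1:**
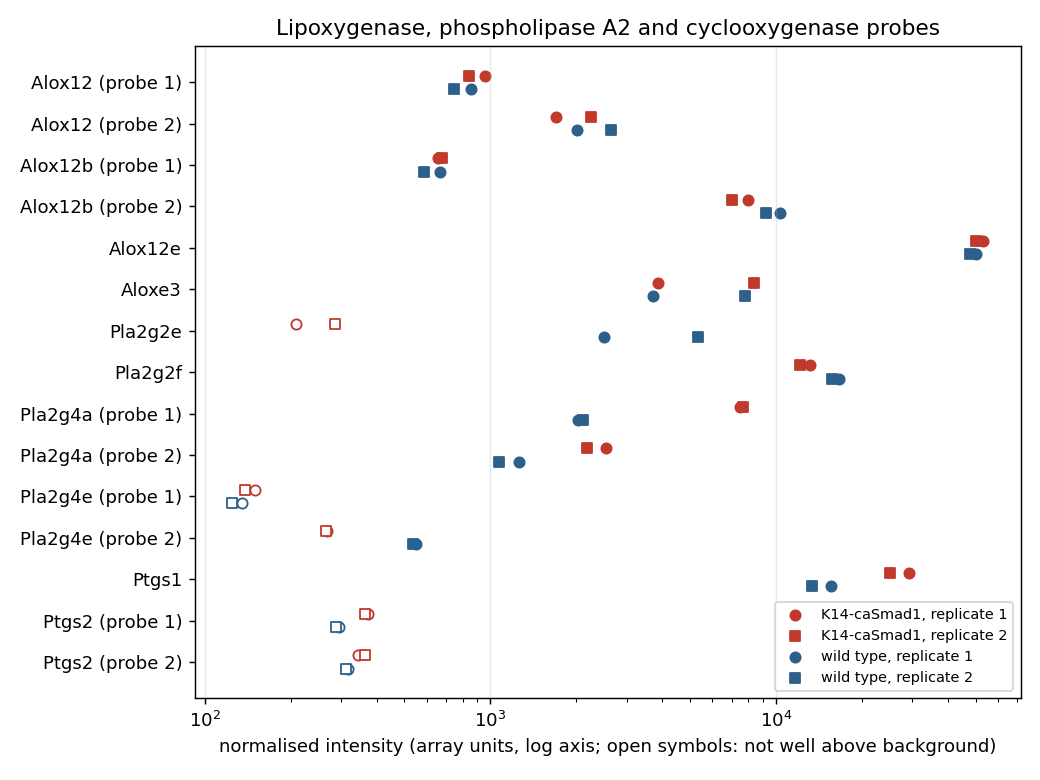
Normalised intensity of every probe of the 10 genes on a log axis, with K14-caSmad1 in red above wild type in blue; circles are replicate 1, squares replicate 2, and open symbols mark a probe not well above background in that group. Pla2g2e and the second Pla2g4e probe had signal only in wild type, both Pla2g4a probes and Ptgs1 were higher in K14-caSmad1 on both arrays, and both Ptgs2 probes stayed at background.

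Pla2g4a encodes the cytosolic, calcium-activated phospholipase that prefers arachidonic acid and supplies most eicosanoid synthesis. Levels are normalised intensities in the array's linear units, comparable between groups but not between probes. Its brighter probe, probe 1 on mm9 chr1:151677133-151677192, read 7461 and 7668 in K14-caSmad1 on replicates 1 and 2, against 2036 and 2104 in wild type. Probe 2 read 2544 and 2177 in K14-caSmad1, against 1260 and 1069 in wild type. K14-caSmad1 was higher on both arrays with either probe, but the sizes were unequal: the log2 ratio was 1.87 on both arrays for the first, 3.65-fold, and 1.01 and 1.03 for the second, 2.03-fold and just past the limit. Pla2g4a stood at rank 24 from the top of the 11736 genes. The log2 ratio ran from 1.44, with the mean of both probes, to 2.17, with median centring, and the call held in every alternative run. The runs on 1 array could not have lost it.

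Pla2g4e, a second cytosolic phospholipase gene, encodes a calcium-dependent N-acyltransferase that makes precursors of N-acylethanolamine lipids. One of its probes (mm9 chr2:119992643-119992702) read 267 and 266 in K14-caSmad1, where it was not well above background, against 548 and 539 in wild type. Its log2 ratios of -1.04 and -1.02 barely reached the limit, and as a bound the gene was at least 1.30-fold lower. The call was lost with median centring (-0.91), without background subtraction (-0.59) and with the background model fitted on all spots (-0.57), while the scanner's processed signals gave -3.24. The other probe was at background in both groups, with 150 and 139 in K14-caSmad1 and 135 and 125 in wild type.

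Pla2g2e and Pla2g2f are secreted phospholipases encoded near each other on chromosome 4, and in mouse skin Pla2g2e is known from the hair follicle and Pla2g2f from the suprabasal epidermis. Pla2g2e (mm9 chr4:138438363-138438422) read 209.6 and 285 in K14-caSmad1, not well above background, against 2500.2 and 5327 in wild type. With the processing as reported, K14-caSmad1 was at least 8.74-fold lower as a mean over both arrays. The log2 ratios were -3.58 and -4.22 against that dim signal. The arrays were 0.65 apart in log2, the widest gap of the 15 probes. With the background model fitted on all spots replicate 1 gave -0.94 and replicate 2 -4.22, which ended the call, and the scanner's processed signals gave -6.84. The mean log2 ratio was -2.58 with that background model and -2.84 without background subtraction, both smaller differences than the bound.

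Pla2g2f (mm9 chr4:138306546-138306605) was bright in both groups, with 13216 and 12118 in K14-caSmad1, against 16635 and 15728 in wild type. K14-caSmad1 was lower on both arrays, yet the log2 ratios of -0.33 and -0.38 amount to 0.782-fold, far from the limit. Pla2g2e and Pla2g2f thus read very differently on the same arrays.

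Hair shaft genes moved the same way as Pla2g2e. All 10 hair shaft markers tested, of 12 listed, were called lower, with a median log2 ratio of -4.39 and a summed intensity of 70002 and 69426 in K14-caSmad1, against 1492080 and 1584450 in wild type. In RNA from a mixture of cells, fewer hair follicle cells and less RNA per cell cannot be told apart, and the part of either in the Pla2g2e value was not tested.

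The bases before the start of Pla2g2e, Pla2g2f and Pla2g4a are shown as examples of phospholipase genes that fell, stayed near wild type and rose. They are the 250 bases upstream of the RefSeq start on GRCm38.p6, 5′ to 3′ along the gene, at chr4:138877692-138877941 (plus strand), chr4:138757599-138757848 (minus strand) and chr1:149961291-149961540 (minus strand, the first of 2 annotated starts). Capitals mark matches to any of 5 short motifs on either strand: the TATA-box letters TATAAA, the AP-1 element TGANTCA, the Smad element GGCGCC, the Smad-binding repeat CAGACA and the element AGATAA bound by GATA factors. No match overlapped another.
Pla2g2e: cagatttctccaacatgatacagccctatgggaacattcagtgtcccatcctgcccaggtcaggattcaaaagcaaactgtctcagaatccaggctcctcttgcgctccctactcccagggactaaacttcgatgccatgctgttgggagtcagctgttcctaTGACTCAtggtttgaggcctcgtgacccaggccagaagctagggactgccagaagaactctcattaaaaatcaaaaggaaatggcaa
Pla2g2f: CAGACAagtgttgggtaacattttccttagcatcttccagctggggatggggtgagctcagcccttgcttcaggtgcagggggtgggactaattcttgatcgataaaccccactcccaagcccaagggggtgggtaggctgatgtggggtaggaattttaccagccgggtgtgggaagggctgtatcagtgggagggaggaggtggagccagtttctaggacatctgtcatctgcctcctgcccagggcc
Pla2g4a: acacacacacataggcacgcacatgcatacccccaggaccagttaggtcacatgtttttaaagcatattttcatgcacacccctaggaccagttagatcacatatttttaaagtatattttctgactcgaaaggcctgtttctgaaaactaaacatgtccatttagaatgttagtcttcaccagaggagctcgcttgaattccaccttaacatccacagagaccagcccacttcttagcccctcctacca
The Pla2g2e window held 1 match, TGACTCA at bases -87 to -81, a motif found in 6.75% of 32851 windows of the same length. The Pla2g2f window held 1 CAGACA at its far end, -250 to -245, as did 17.1% of all windows. The Pla2g4a window held none of the 5 motifs. Nor did the window of Pla2g4e, which was also called lower and is not shown. Windows of 9 of the 10 genes were at hand; among the others Ptgs2 held 1 GGCGCC at -190 to -185 (9.59% of all windows) and the second Pla2g4a start 1 TATA box in reverse (12.4%). These letter matches describe the windows and say nothing about binding.

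Ptgs1, the constitutive cyclooxygenase, read 29245 and 25152 in K14-caSmad1, against 15631 and 13381 in wild type (mm9 chr2:36105892-36105951). K14-caSmad1 was higher on both arrays, with log2 ratios of 0.90 and 0.91, or 1.88-fold, just short of the limit. It passed the limit with median centring (1.16) and without background subtraction (1.02).

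Ptgs2, the inducible cyclooxygenase, was not well above background in either group. One of its probes was spotted 10 times, and none of these spots was well above background in any channel. Its mean intensity was 372 and 365 in K14-caSmad1 and 294 and 289 in wild type. The second probe read 343 and 364 in K14-caSmad1 and 317 and 313 in wild type. These are readings at background, so no ratio is given for Ptgs2.

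Ptgs1 and Alox5 are also expressed in immune cells of the epidermis. Of 5 T cell and Langerhans cell markers 4 were tested and none reached 2-fold, while their summed intensity was 22693 and 22587 in K14-caSmad1, against 14185 and 14437 in wild type. Ptprc (log2 ratio 0.90), Cd3g (0.88) and Cd207 (0.86) lay close to Ptgs1, Epcam, which keratinocytes also express, stood at 0.09, and Cd3e was at background. Basal keratinocyte markers had a summed intensity of 221887 and 262938 in K14-caSmad1, against 94655 and 101494 in wild type. The part of these cells in the Pla2g4a and Ptgs1 values was not tested.

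**Figure D2:**
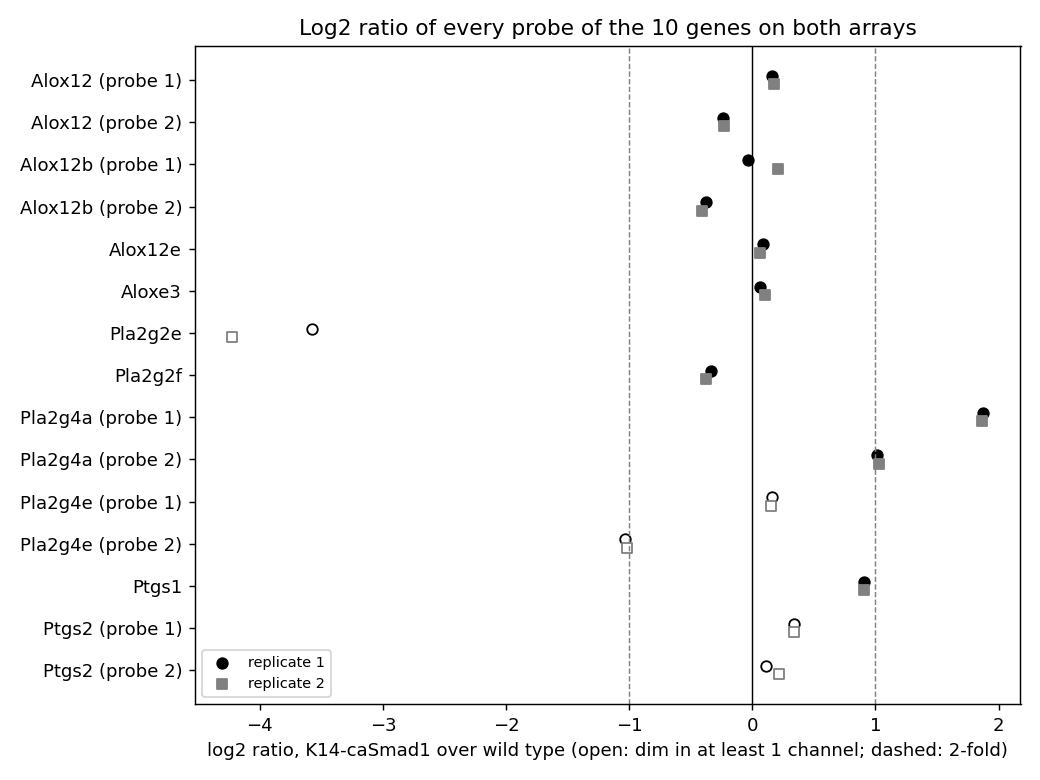
Log2 ratio of K14-caSmad1 over wild type for every probe, with replicate 1 in black and replicate 2 in grey; dashed lines mark 2-fold and open symbols a probe dim in at least 1 channel. Pla2g4a probe 1 lay beyond the upper line and its probe 2 about on it, while Pla2g2e lay far beyond the lower line. Ptgs1 sat just inside the upper line and the second Pla2g4e probe on the lower one. The first Pla2g4e probe, dim in both groups, and all plotted lipoxygenase probes lay near 0.

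The 4 lipoxygenase genes of the described set lie in neighbouring groups on chromosome 11, and their log2 ratios ran from -0.39 to 0.08. Alox8, outside the set but next to Alox12b, was at least 15.6-fold lower and is given below. Alox12b encodes the 12R-lipoxygenase that starts oxidation of ceramide-bound linoleate. Its brighter probe, probe 2 (mm9 chr11:68983104-68983163) read 7994 and 7002 in K14-caSmad1, against 10375 and 9272 in wild type. K14-caSmad1 was lower on both arrays, at a log2 ratio of -0.38 and -0.41, or 0.763-fold. Probe 1 read 655 and 678 in K14-caSmad1, against 669 and 587 in wild type, so that its log2 ratios had opposite signs, -0.03 and 0.21.

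Aloxe3 encodes the hydroperoxide isomerase that takes over the Alox12b product. Its probe (mm9 chr11:68962402-68962461) read 3866 and 8351 in K14-caSmad1, against 3712 and 7773 in wild type. The arrays differed from each other in both channels far more than the genotypes did within an array, where the log2 ratio was 0.06 and 0.10. Alox12b and Aloxe3 act in the upper epidermal layers, and the 9 suprabasal markers had a summed intensity of 548993 and 557539 in K14-caSmad1, against 320851 and 296428 in wild type, with a median log2 ratio of 0.52. The markers did not move together: Krt2 (4.26), Hrnr (3.03), Krt1 (1.80) and Flg2 (1.75) were called higher, while Ivl (-0.83), Flg (-0.80) and Casp14 (-0.89) lay below 0 without a call. Krt10 depended on the probe, with 0.02 on its brightest and 2.29 on another. The part of these layers in the lipoxygenase values was not tested.

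Alox12e, the epidermis-type 12-lipoxygenase of the mouse, had a high signal in both groups. Its probe read 53086 and 50086 in K14-caSmad1, against 50026 and 47981 in wild type (mm9 chr11:70129157-70129216). On each array the K14-caSmad1 value was just above the wild-type value, at log2 ratios of 0.09 and 0.06, or 1.05-fold.

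Alox12, the platelet-type 12-lipoxygenase, had probes that pointed opposite ways. Probe 2, the brighter (mm9 chr11:70055715-70055774) read 1699 and 2259 in K14-caSmad1, against 2007 and 2642 in wild type, a log2 ratio of -0.24 and -0.23 that became 0.08 with median centring. Probe 1 read 960 and 841 in K14-caSmad1, against 860 and 745 in wild type, a log2 ratio of 0.16 and 0.18. The arrays differed in intensity more than the genotypes did, but each probe's log2 ratio repeated between arrays, and neither ratio came near 2-fold. Of 6 platelet markers, 5 did not pass the detection filter, Pf4 and Ppbp among them, and Treml1 gave -0.16.

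Over 13 of the 15 probes the log2 ratios of the arrays were within 0.11 of each other. The exceptions were Pla2g2e and Alox12b probe 1 (0.24).

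In the RefSeq gene order of GRCm38.p6, Aloxe3, Alox12b and Alox8 follow one another. Alox8, which encodes the 8S-lipoxygenase of mouse skin, read 409 and 368 in K14-caSmad1, not well above background, against 7284 and 5848 in wild type. It was at least 15.6-fold lower (log2 ratios -4.15 and -3.99 against that dim signal), beside Alox12b at -0.39 and Aloxe3 at 0.08. On chromosome 4, Pla2g5, a secreted phospholipase gene between Pla2g2f and Pla2g2e, was 2.25-fold higher (1.15 and 1.19), with 3269 and 2966 in K14-caSmad1, against 1473 and 1298 in wild type.

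On chromosome 2, Pla2g4b, a cytosolic phospholipase gene close to Pla2g4e, was far lower, with 1452 and 1261 in K14-caSmad1, against 16905 and 15478 in wild type (log2 ratios -3.54 and -3.62). Pla2g4f, on the other side of Pla2g4e, had log2 ratios of -0.76 and -0.72. Pla2g4a and Ptgs2 are neighbours on chromosome 1, one called higher and the other at background.

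**Figure D3:**
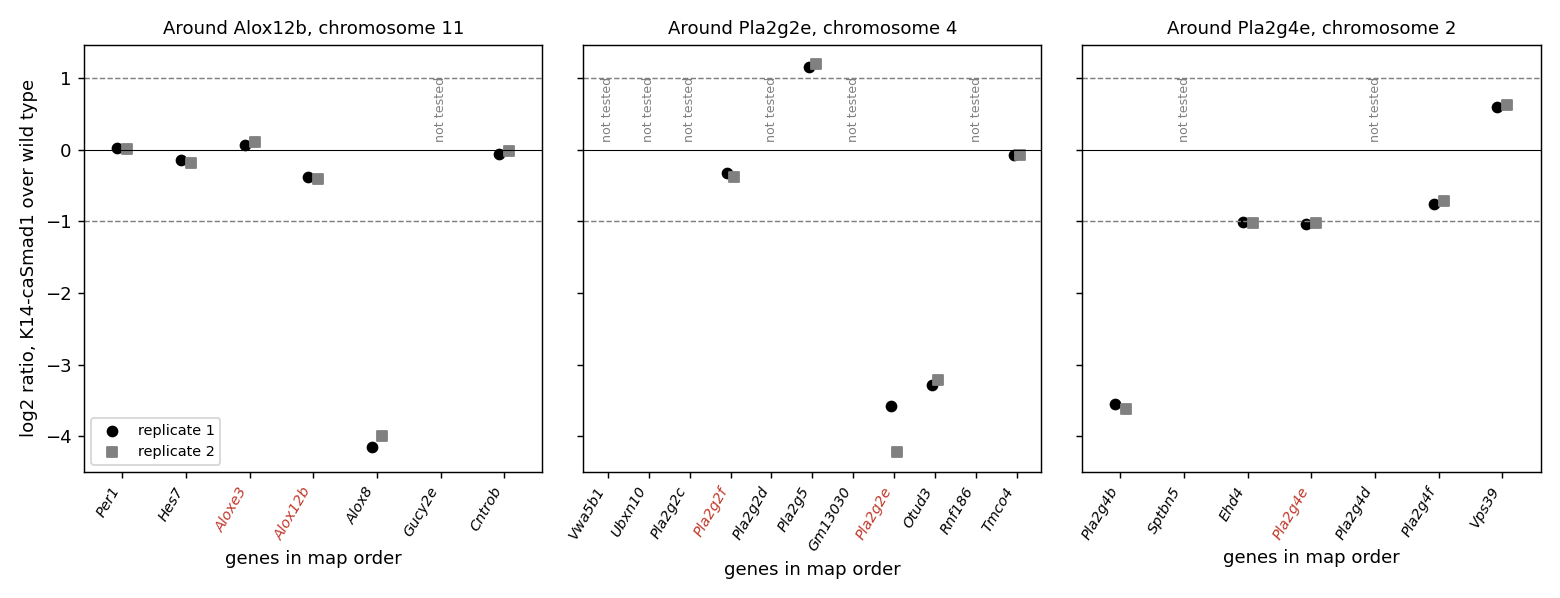
Log2 ratio of K14-caSmad1 over wild type for genes in map order around Alox12b, Pla2g2e and Pla2g4e, with replicate 1 as black circles, replicate 2 as grey squares, described genes in red and dashed lines at 2-fold. Alox8, Pla2g2e, Otud3 and Pla2g4b lay below -3, Aloxe3, Alox12b and Pla2g2f lay between the dashed lines, and Pla2g5 lay above 1.

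Other genes of the pathway were counted by list, beside 4.09% called higher and 9.82% lower over all genes. Of 10 other lipoxygenase and leukotriene genes 5 were tested, and 1 was called, Alox8 (lower), with a median log2 ratio of 0.11. Alox5, the first enzyme of leukotriene synthesis, was picked after its values were seen: its brightest probe gave 0.99 on both arrays, with 5868 and 4708 in K14-caSmad1, against 2960 and 2379 in wild type, and its other probes gave 1.67 and 0.19. Its partner Alox5ap stood at 0.02 and the leukotriene A4 hydrolase gene Lta4h at 0.51.

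Of 18 other phospholipase A2 genes listed, the receptor gene Pla2r1 included, 16 were on the array and 7 were tested. Among these 7, 1 was called higher (Pla2g5) and 2 lower, with a median of 0.01. Besides Pla2g4b, Pla2g6, the calcium-independent phospholipase, was at least 8.44-fold lower, with 291 and 314 in K14-caSmad1, not well above background, against 3354 and 3709 in wild type. The other 4 tested had log2 ratios between -0.74 and 0.47.

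Of 22 prostanoid synthases, transporters and receptors, 11 were tested and 1 was called, with a median of 0.00. Ptges3, a chaperone-associated protein with prostaglandin E synthase activity, was 2.91-fold higher, with 16303 and 13993 in K14-caSmad1, against 5455 and 4953 in wild type, and its dim second probe gave 0.93. The 8 prostanoid receptor genes on the array were at background in both groups.

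Alox12b and Aloxe3 work among the genes that make and bind barrier ceramides. Of 17 such genes listed, 15 were tested, 1 was called higher and none lower, with a median of -0.03 and a range from -0.72 to 1.04. The gene called was Elovl4, which elongates the very long fatty acids of acylceramides, with 16600 and 13633 in K14-caSmad1, against 8061 and 6653 in wild type (log2 ratios 1.04 and 1.04).

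**Figure D4:**
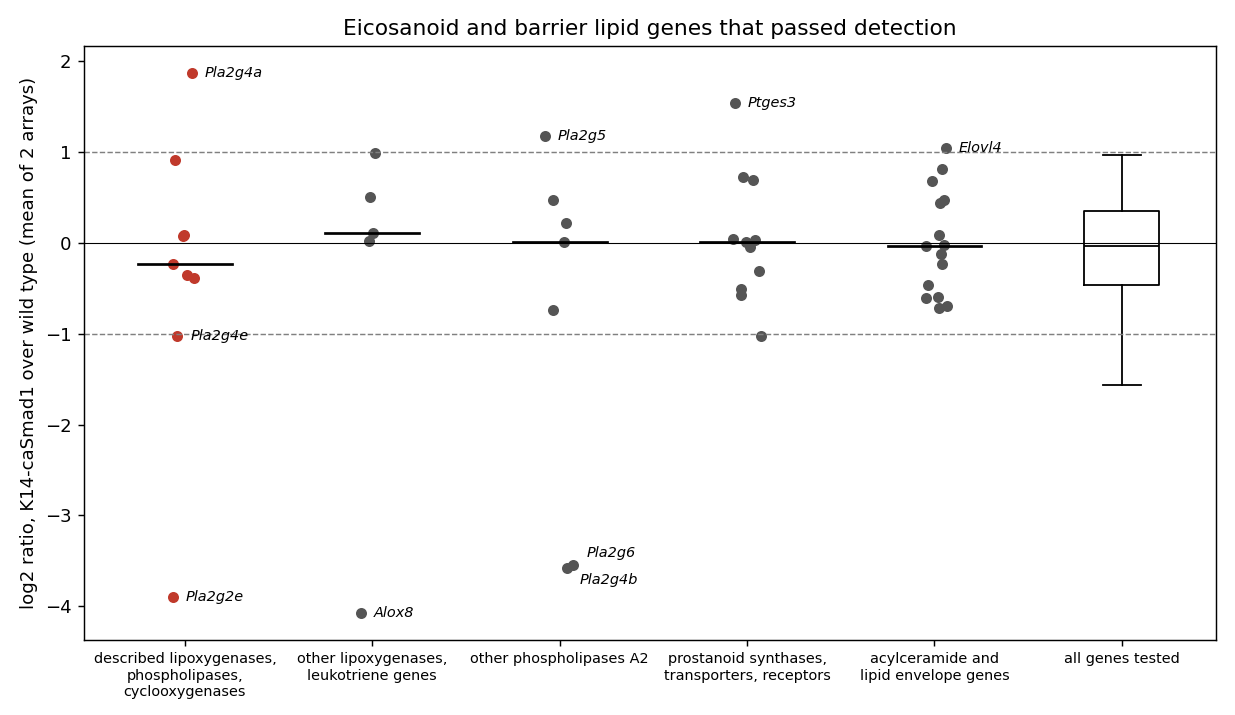
Mean log2 ratio of K14-caSmad1 over wild type for each gene that passed detection, by list, with a bar at the list's median, dashed lines at 2-fold and names for the genes called on both arrays; the box on the right gives the quartiles of all 11736 genes and its whiskers the percentiles 5 and 95. Most genes lay between the dashed lines, and Alox8, Pla2g2e, Pla2g4b and Pla2g6 lay below the whisker of all genes.

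Pla2g4a was called higher in every processing setting run, Pla2g2f, Alox12, Alox12b, Alox12e and Aloxe3 in none, and the size of the Pla2g2e and Pla2g4e ratios depended on how their dim K14-caSmad1 signal was treated.

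**Figure D5:**
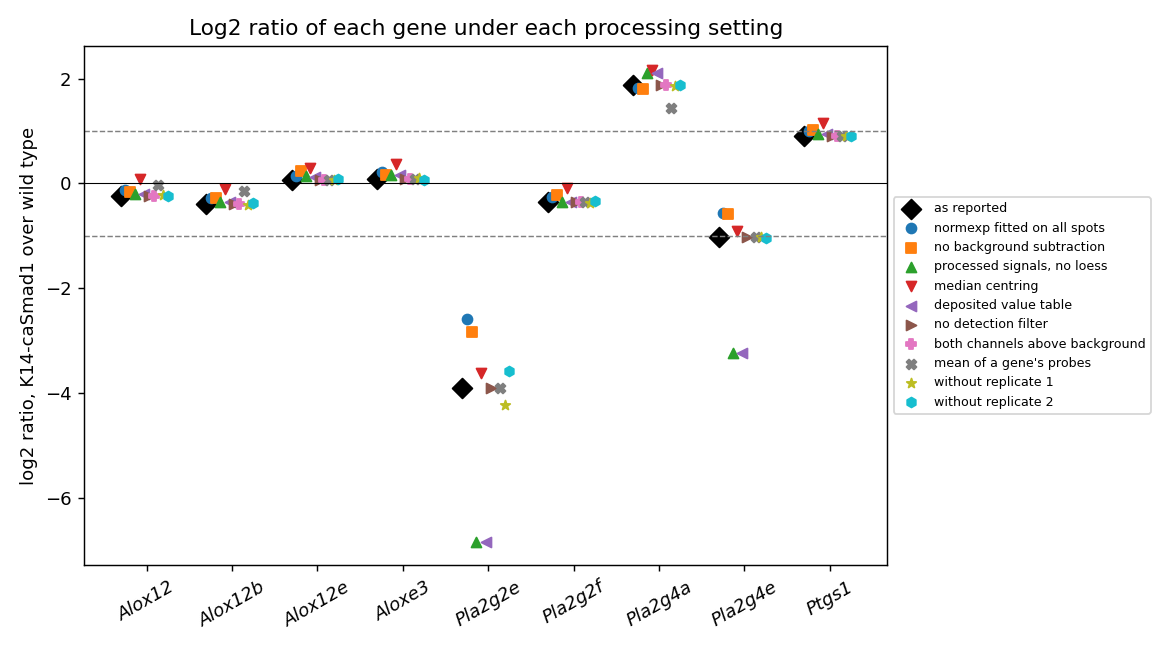
Log2 ratio of K14-caSmad1 over wild type for the 9 tested genes under each processing setting, with black diamonds for the values as reported and dashed lines at 2-fold. Pla2g2e ran from -6.84 to -2.58 and Pla2g4e from -3.24 to -0.57, while Pla2g4a stayed between 1.44 and 2.17 and Ptgs1 between 0.90 and 1.16.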

How the data were processed

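Primary epidermal keratinocyte RNA went through 1 round of amplification before dye labelling, per the labels' protocols, and was hybridised on 2 arrays that lay on 1 slide. The deposited scanner files hold spot and background intensity values without normalization, and processed intensity values that Agilent Feature Extraction 10.5.1.1 background-subtracted and dye-normalized, per the file headers. The deposited table of the series holds log10 ratios of Cy5 (K14-caSmad1) over Cy3 (wild type), within 0.00397 of the ratio of the processed signals, with medians of 0.023 and -0.01.

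From the mean and median local background signals, limma 3.58.1 (R 4.3.3) computed normexp values (offset 50) and loess-normalized log2 ratios (span 0.3, controls at weight 0). The 36 spots of replicate 1 on a non-uniform local background were left out, and so were outlier spots. Repeated spots were averaged; 0 gene spots were saturated. Intensities per group are loess and Aquantile values on a linear scale and are not compared between probes. Summed intensities of a list only set the groups side by side, and are weighted to its brightest probes. A probe was tested if well above background on both arrays in at least 1 channel (15102 probes, 11736 genes), and a gene was represented by its brightest tested probe. Names were updated through RefSeq GRCm38.p6. The bound "at least N-fold" sets the bright group's mean against the higher of the dim probe's signal and the lowest signal well above background, and is open to dye bias. It is a mean over both arrays, computed with the processing as reported and not under the alternatives. Calls were at least 2-fold on both arrays. limma's lmFit and eBayes with Benjamini-Hochberg adjustment at 0.05 passed 10225 genes. The fit was tested on simulated data. From each list of other pathway genes, those called were named, up to 4. Alox5, Alox5ap, Lta4h, Pla2g4f, the cell type markers and the map neighbours were named outside that rule, called or not. The 10 genes, the lists and the settings were chosen with earlier results of these data known. Array number limits the precision, and with no dye swap a dye bias cannot be told apart from genotype.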

Additional observations from a re-analysis of the deposited data

How the results depend on the processing

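Of 88 log2 ratios of the tested genes recomputed under the alternatives, 81 kept their direction and their side of the 2-fold limit, 4 were no longer past it, 2 came to be past it and 1 turned: Alox12, to 0.078 with median centring, which moved the median of all genes from -0.03 to 0.22. Part of the 88 are no new check. Changing the detection filter left every ratio it kept as reported, and averaging probes repeats the ratio of a gene with 1 tested probe. The count of genes called, 1632 as reported, was 776 with the background model fitted on all spots, the 36 of non-uniform background included (303 higher, 473 lower; 3268 by limma), 3124 with the scanner's processed signals (1255 higher, 1869 lower) and 3120 with the deposited table (1252 higher, 1868 lower). It held 767 lower without background subtraction and 1110 higher with median centring, and limma passed 17755 genes with no detection filter. Among the described genes 3 were called as reported. With the background model on all spots 1 was called and 0 were lower, as when both channels had to be above background, which leaves out Pla2g2e and Pla2g4e. Without background subtraction and with median centring 2 were higher and 1 lower. An intensity trend in eBayes changed no 2-fold call by construction. Without replicate 1 or replicate 2, 1775 and 1781 genes passed 2-fold, 3 of the described genes among them each time, with no limma test on 1 array. A gene called on both arrays cannot lose its call on either array alone. The causes of these changes were not tested. Every ratio already pairs the groups on an array, so no further pairing was fitted, and the arrays share 1 slide. Dim signal limits Ptgs2, Pla2g2e and Pla2g4e, for which K14-caSmad1 has only a bound or no value.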

Other observations

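Among the nearest genes in the RefSeq order that are in none of the lists, 4 were called lower, and they were picked after their values were seen. None was called higher, and most of those tested were not called, with mean log2 ratios from -0.88 (Rnasek) to 0.86 (Rgs18). Over all genes tested, 9.82% were called lower. Otud3, which encodes a deubiquitinase and lies next to Pla2g2e, had log2 ratios of -3.28 and -3.22. Ehd4, next to Pla2g4e, had -1.02 and -1.03. Mrrf, next to Ptgs1, had -1.23 and -1.22, and Rbm18, beyond it, had -1.72 and -1.80, while Ptgs1 itself was not called. Among other cell types, 6 of 7 mast cell markers were at background and Kit was at least 1.35-fold lower, while 4 of 6 myeloid markers on the array were tested and split, with Adgre1 at 1.45 and Cd68 at least 2.03-fold lower. Of 4 fibroblast markers tested 3 were called lower, each at background in K14-caSmad1, and the 1 endothelial marker tested, Vwf, was at least 1.84-fold lower. All 3 melanocyte markers tested lay below 0, with a median of -1.22, and 1 was called lower. The 5 sebaceous gland markers tested split, 2 above 0 and 3 below, with a median of -0.01. Of these, 1 was called lower, Elovl3, at -3.20.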
